A study of Mus musculus with 4 samples.

Results

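The genes described here move chloride, bicarbonate and protons across membranes or interconvert carbon dioxide and bicarbonate. They were chosen by gene symbol alone, as the rows of the deposited table whose symbols begin with *Slc4a*, *Slc9a*, *Slc12a* or *Slc26a* and a number, begin with *Clcn*, or are *Car* with a number, leaving out 2 symbols. This gave 65 of the 23997 genes. The *Slc9a* family and the *Slc26a* family have 11 members each, the *Slc4a* family has 10, the *Slc12a* and *Clcn* families have 9 each and the *Car* family has 15. Of the 65, *Slc4a1ap*, *Slc9a3r1* and *Slc9a3r2* are not transporters but proteins named for binding to them.

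Lgr5+ progenitors were the EGFP+ cells sorted from P3 cochleae of Lgr5-EGFP-IRES-CreERT2 mice, and Lgr6+ progenitors were isolated likewise from Lgr6-EGFP-IRES-CreERT2 mice. The strain of both was C57BL/6, and neither population was treated. In each population EGFP follows the promoter of the receptor gene named, so the sort can hold any cell in which that promoter was active. The labels list 2 libraries per population, whereas the methods speak of 1 RNA extraction per population split into 3 fractions, and the table gives 1 combined FPKM, a fragment count scaled by transcript length and library size, for each population. The populations are called Lgr5+ and Lgr6+ cells below. The spread between replicates is therefore not known, no difference below has a replicate check, and no *p*-value was calculated.

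Cells set their pH and their chloride with these families. Anion exchangers of the *Slc4a* and *Slc26a* families trade chloride for bicarbonate, sodium proton exchangers (*Slc9a*) expel acid, and cation chloride cotransporters (*Slc12a*) bring chloride in with sodium or let it out with potassium. Carbonic anhydrases (*Car*) supply the bicarbonate and the protons, and the ClC proteins (*Clcn*) are chloride channels of the cell surface or chloride proton exchangers of endosomes and lysosomes. In the cochlea such transporters are known for making the potassium-rich endolymph and for removing potassium and acid around the hair cells (HCs), and several of them are deafness genes.

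Genes reaching 1 FPKM in 1 or both populations were kept. Of the 65 members 41 were kept, or 63.1%, against 56.0% of all genes in the table. The difference of a gene is given as log2(FPKM + 1) of Lgr6+ cells less that of Lgr5+ cells, and it is positive for genes higher in Lgr6+ cells. The added 1 understates the difference of genes with low FPKM. A kept gene was counted as past the limit when this difference was 2-fold or more. Among kept members 14 were past the limit, 10 of them higher in Lgr6+ cells and 4 higher in Lgr5+ cells, which is 34.1% of the kept members. Of all 13436 kept genes 29.9% were past the limit, 18.2% higher in Lgr6+ cells and 11.7% higher in Lgr5+ cells. The share of members is thus near that of all genes and is not a result about the members. The median log2 difference was 0.08 over the kept members and 0.03 over all kept genes.

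Of the 41 kept members 27 were under the limit, and these include the transporters of highest level. With 1 FPKM or more required in each population, 30 members remained and 5 of them were past the limit, against 20.6% of all genes under that condition. Among the 11 members with 10 FPKM or more in each population, *Car14* was the only 1 past the limit, against 12.1% of such genes. The other 9 members past the limit were under an FPKM of 1 in 1 of the populations. Of all genes kept through 1 population alone 75.8% were past the limit, so passing is frequent there for any gene. The 65 members summed to 435 FPKM in Lgr5+ cells and to 459 FPKM in Lgr6+ cells.

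**Figure D1:**
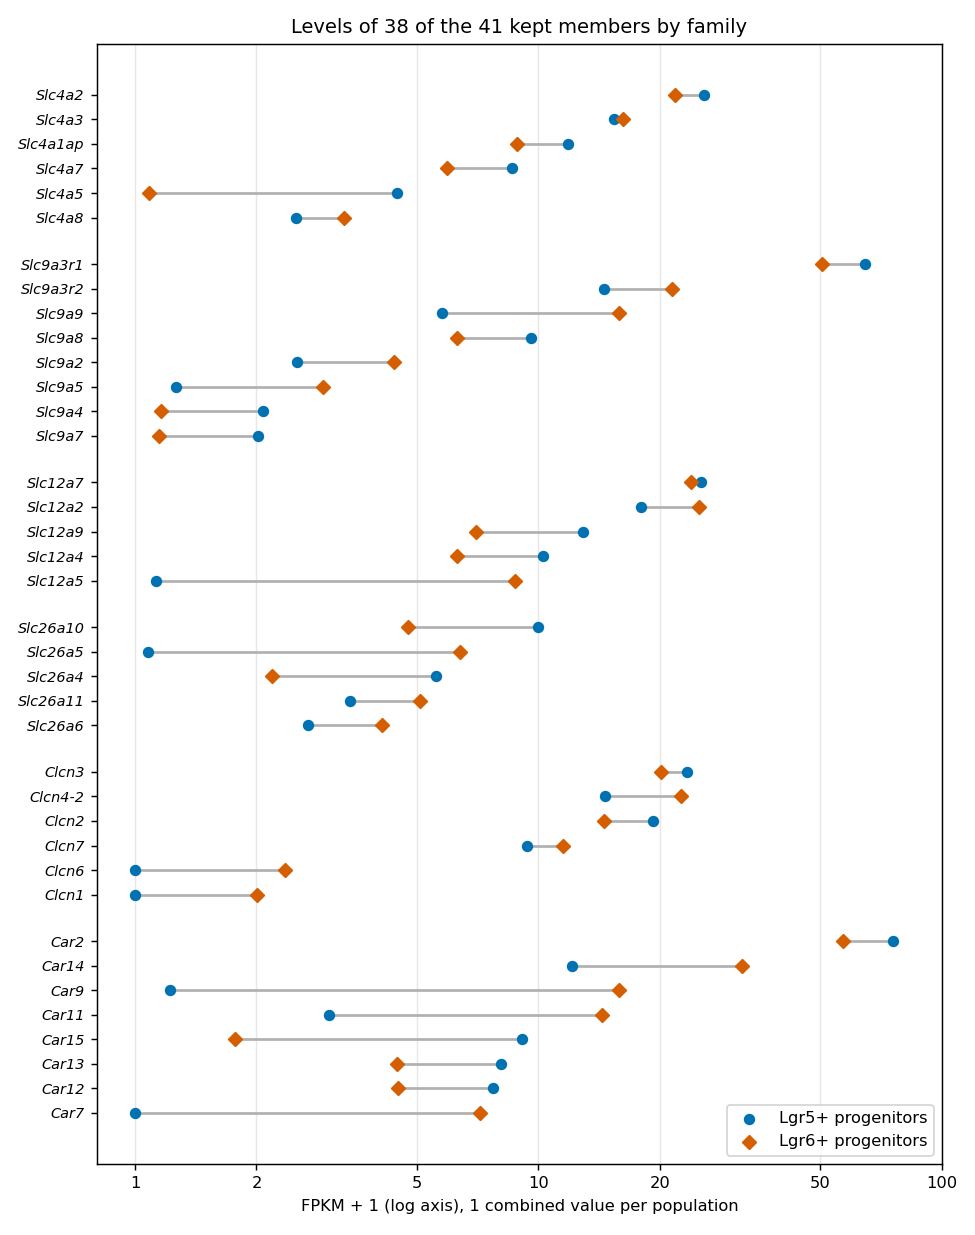
FPKM + 1 of 38 of the 41 kept members on a log axis, with 1 combined value for Lgr5+ cells (circles) and 1 for Lgr6+ cells (diamonds), grouped by family and joined by a line. *Car2* and *Slc9a3r1* are the highest in both populations, and the longest lines belong to genes near 1 on the axis in 1 population, such as *Car9*, *Slc12a5* and *Slc26a5*.

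Some properties of the populations bear on the values below. Supporting cell (SC) markers were high in both, and of 10 such genes 2, *Sox2* and *Hes5*, were past the limit, both higher in Lgr5+ cells. *Lgr5* itself had 9.65 FPKM in Lgr5+ cells and 25.0 in Lgr6+ cells, and *Lgr6* had 2.06 and 2.90. *Lgr5* was thus lower in the population sorted by its promoter, past the limit, and *Lgr6* was low and close in both. The paper describes Lgr6+ cells as a subpopulation of Lgr5+ progenitors. By q-PCR it reports more *Lgr5* in Lgr5+ cells and more *Lgr6* in Lgr6+ cells than in the matching EGFP-negative cells. The values here hold no EGFP-negative cells, so they do not test that enrichment. Markers of other cells were also present. In Lgr6+ cells 5 of 9 HC markers, 6 of 7 macrophage markers, all 5 endothelial markers, 3 of 4 Schwann cell markers and 3 of 7 fibrocyte and mesenchyme markers were past the limit upward, while 4 of 6 erythroid markers were past it in Lgr5+ cells. The authors report high purity of sorted cells by re-sorting, staining and q-PCR, with no cells positive for the HC protein Myo7a. Staining reads protein, whereas the markers here are RNA. Their q-PCR, which reads RNA, gave lower *Brn3.1*, an HC marker, and higher *Sox2* in sorted than in EGFP-negative cells. It did not compare these HC and SC markers between the sorted populations, as the values here do. The part of cells other than SCs in the members' differences was not tested. In such bulk samples fewer cells of a type and less RNA per cell cannot be told apart. Low values of the table fell on steps, as whole fragments do. For a transcript of 2000 bases a step was 0.0708 FPKM in Lgr5+ cells and 0.0222 in Lgr6+ cells, so the Lgr5+ value was 3.2 times as coarse.

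The promoters of 3 members are shown as examples of different levels and directions. The 250 bases before the start of 3 genes are given from the RefSeq annotation of GRCm38.p6, 5′ to 3′ on the strand of the gene, with CpG dinucleotides in capitals. *Slc9a3r1* is shown as a member high in both populations, *Slc26a5* as a member past the limit toward Lgr6+ cells and *Car15* as a member past the limit toward Lgr5+ cells.
Slc9a3r1, chr11:115163091-115163340, plus strand: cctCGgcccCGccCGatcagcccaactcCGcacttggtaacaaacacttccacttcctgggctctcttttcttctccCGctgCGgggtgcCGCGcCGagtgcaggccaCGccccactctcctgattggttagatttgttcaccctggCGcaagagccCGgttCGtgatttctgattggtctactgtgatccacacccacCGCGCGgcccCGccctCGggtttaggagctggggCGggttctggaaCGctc
Slc26a5, chr5:21865605-21865854, minus strand: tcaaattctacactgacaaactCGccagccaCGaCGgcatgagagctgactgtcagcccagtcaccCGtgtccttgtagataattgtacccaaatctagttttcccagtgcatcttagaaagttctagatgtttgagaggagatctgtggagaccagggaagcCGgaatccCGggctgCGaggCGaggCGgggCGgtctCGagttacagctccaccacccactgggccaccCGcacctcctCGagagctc
Car15, chr16:17838187-17838436, minus strand: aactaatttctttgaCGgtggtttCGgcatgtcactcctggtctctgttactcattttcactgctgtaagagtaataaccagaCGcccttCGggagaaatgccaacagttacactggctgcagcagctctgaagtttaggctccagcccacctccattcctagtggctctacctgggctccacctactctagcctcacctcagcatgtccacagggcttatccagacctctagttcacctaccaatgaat
The *Slc9a3r1* window holds 20 CpG, that of *Slc26a5* 13 and that of *Car15* 4.

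Carbonic anhydrases were led by *Car2*, the fast cytosolic enzyme. *Car2*, on chromosome 3 from 14886426 to 14900770, had 74.9 FPKM in Lgr5+ cells and 55.8 in Lgr6+ cells, a log2 difference of -0.42, which is under the limit. It made up 67.2% of the summed FPKM of the 15 *Car* members in Lgr5+ cells and 43.0% in Lgr6+ cells. The *Car2* share was lower in Lgr6+ cells beside a sum that went from 111 to 130. Of the other cytosolic forms, *Car13* had 7.08 and 3.46, and *Car1*, which is abundant in erythrocytes, was listed at 0 in both. The hemoglobin genes *Hbb-bs* and *Hba-a2* had 333 and 142 in Lgr5+ cells against 84.0 and 0.71 in Lgr6+ cells, so *Car1* was at 0 also where erythroid RNA was present. *Car7*, a cytosolic enzyme known from neurons, lies on chromosome 8 from 104446719 to 104624396. It was listed at 0 in Lgr5+ cells and had 6.14 FPKM in Lgr6+ cells. The interval of the table for *Car7* spans 178 kb, whereas the RefSeq gene spans 15.7 kb.

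The membrane-bound carbonic anhydrases face the extracellular side, and their summed FPKM was 26.2 in Lgr5+ cells and 49.998 in Lgr6+ cells. *Car14*, a transmembrane enzyme on chromosome 3 from 95893921 to 95904639, had 11.1 FPKM in Lgr5+ cells and 31.0 in Lgr6+ cells, a log2 difference of 1.40. *Car9*, a transmembrane enzyme known for its induction by hypoxia, on chromosome 4 from 43507026 to 43513725, had 0.219 FPKM and 14.8 FPKM, a log2 difference of 3.70. *Car15*, a membrane-anchored form on chromosome 16 from 17835276 to 17838186, went the other way, with 8.11 in Lgr5+ cells and 0.766 in Lgr6+ cells, a log2 difference of -2.37. *Car12*, also transmembrane, had 6.70 and 3.48 and was under the limit, and *Car4* was listed at 0 in both. The membrane-bound forms therefore differed among themselves, with 2 higher in Lgr6+ cells, 1 higher in Lgr5+ cells, 1 under the limit and 1 at 0.

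The value of *Car9* in Lgr5+ cells stood for 0.876 to 3.12 steps, depending on which annotated transcript length was used, and no ratio is given for it. In Lgr6+ cells it stood for 189 to 674 steps. In RefSeq the gene shares 1722 bases with *Arhgef39*, which had 1.08 FPKM in Lgr5+ cells and 0.327 in Lgr6+ cells and so went in the opposite direction. *Car14* shares 825 bases with *Aph1a*, which had 12.8 and 8.34, and its interval in the table is 10.7 kb against 7.35 kb in RefSeq. The last 30 bases before the *Car9* start are shown because they hold the core letters of the hypoxia response element, ACGTG, here on the opposite strand and in capitals.
Car9, chr4:43506996-43507025, plus strand: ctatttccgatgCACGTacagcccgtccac
The first capital lies 18 bases before the gene starts. ACGTG was sought on either strand in the 250 bases before a start, and a gene counted if any of its windows held it. The share was 27.1% of the 48 members found among the RefSeq promoters and 20.3% of 17797 genes. For CACGTG, which contains it, the shares were 18.8% and 7.81%. Where the higher FPKM was 10 or more, ACGTG was found for 46.7% of members and 25.7% of all genes. The former share is 7 of 15 members, with *Car9* among the 7. *Car2* and *Slc12a2* are not among the 48. From 1 to 10 FPKM it was found for 11.8% and 23.3%, and below 1 the members had the higher share. These matches describe letters and not binding.

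The carbonic anhydrase related proteins lack the enzyme activity. *Car11*, on chromosome 7 from 45699967 to 45704661, had 2.02 FPKM in Lgr5+ cells and 13.3 in Lgr6+ cells, a log2 difference of 2.25. *Car8* had 0.313 and 0.841 and *Car10* had 0.364 and 0.0947, and both were below the filter. The mitochondrial forms *Car5a* and *Car5b* were at most 0.562, and the secreted form *Car6* was listed at 0 in both. Over the 8 kept *Car* members the median log2 difference was 0.49, and it was -0.42 with 1 FPKM or more required in each population, so its sign depended on the filter.

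Of the *Slc26a* anion transporters, *Slc26a5* encodes prestin, the motor protein of outer HCs. *Slc26a5*, on chromosome 5 from 21809001 to 21865604, had 0.0761 FPKM in Lgr5+ cells and 5.39 in Lgr6+ cells, a log2 difference of 2.57. The Lgr5+ value stood for 1.11 to 1.64 steps and the Lgr6+ value for 251 to 372 steps. Of the 9 HC markers 5 were past the limit in the same direction, and *Pou4f3*, *Atoh1*, *Myo6* and *Slc17a8* were under it. The part of HCs in the *Slc26a5* values was not tested. The markers with the largest differences are given next. *Ocm*, a calcium-binding protein of outer HCs, had 15.3 in Lgr5+ cells and 268 in Lgr6+ cells, *Tmc1*, a part of the transduction channel, had 1.06 and 23.1, and *Otof*, which acts in synaptic release, had 41.6 and 171. The summed FPKM of the 9 HC markers was 249 and 798, none of them was at 0 in either population, and *Atoh1* had 30.9 and 36.4.

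*Slc26a4* encodes pendrin, a chloride bicarbonate exchanger whose loss causes deafness with an enlarged vestibular aqueduct. *Slc26a4*, on chromosome 12 from 31519819 to 31559969, had 4.58 FPKM in Lgr5+ cells and 1.19 in Lgr6+ cells, a log2 difference of -1.35. Markers of endolymphatic sac and ionocyte-like epithelium were at or near 0. *Foxi1* was listed at 0 in both populations, *Atp6v1b1* was at 0 and 0.0464, and *Atp6v0a4* was at 0.546 and 0.535. Other epithelia are not covered by these markers, and which cells gave the *Slc26a4* values was not tested. *Slc26a10*, on chromosome 10 from 127172426 to 127180645, had 8.98 FPKM and 3.74 FPKM, a log2 difference of -1.08. It shares 948 bases with *B4galnt1*, which had 11.1 and 1.95, a log2 difference of -2.04 in the same direction. The library kit is not stated to keep strand, so reads of the shared bases cannot be told apart.

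The remaining *Slc26a* genes were low. *Slc26a11*, an anion transporter, had 2.40 and 4.10, and *Slc26a6*, which exchanges chloride for oxalate or bicarbonate, had 1.69 and 3.09. Neither reached the limit. *Slc26a2*, the sulfate transporter of cartilage, *Slc26a1*, *Slc26a7* and *Slc26a8* were below an FPKM of 1 in both populations, and *Slc26a3* and *Slc26a9* were listed at 0. The family thus held 5 kept members of 11 and a summed FPKM of 18.9 in Lgr5+ cells and 19.3 in Lgr6+ cells, the lowest sum of the 6 families.

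Cation chloride cotransporters set intracellular chloride. *Slc12a2*, which encodes NKCC1 and loads chloride into cells, on chromosome 18 from 57878678 to 57946821, had 17.0 FPKM in Lgr5+ cells and 24.04 in Lgr6+ cells, a log2 difference of 0.48. The other sodium-dependent members, *Slc12a1* and *Slc12a3*, which are known from the kidney, were at 0.0195 and 0 and at 0 in both. *Slc12a7*, which encodes KCC4, a potassium chloride cotransporter of SCs near the outer HCs that is needed for hearing, on chromosome 13 from 73763697 to 73816742, had 24.2 FPKM and 22.9 FPKM, a log2 difference of -0.08. RNA of *Slc12a2* and of *Slc12a7*, the import and export cotransporters of highest level, was therefore present in both populations and under the limit.

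Of the other potassium chloride cotransporters, *Slc12a4* (KCC1) had 9.25 in Lgr5+ cells and 5.28 in Lgr6+ cells, under the limit. *Slc12a5*, which encodes KCC2, a cotransporter known as neuronal, on chromosome 2 from 164967988 to 164999731, had 0.128 FPKM and 7.75 FPKM, a log2 difference of 2.96. Of the 4 neuronal markers 1, *Snap25*, was past the limit, with 7.63 and 53.4, while *Tubb3* had 1.18 and 0.0959, *Nefl* 15.2 and 14.7 and *Nefm* 60.2 and 45.2. The summed FPKM of these markers was 84.2 and 113. Among the remaining members *Slc12a9* had 11.9 and 6.00, just under the limit, and *Slc12a8* was below an FPKM of 1.

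In the *Slc4a* family the anion exchangers were the most expressed. *Slc4a2* (AE2), on chromosome 5 from 24425232 to 24440947, had 24.8 FPKM in Lgr5+ cells and 20.8 in Lgr6+ cells, and *Slc4a3* (AE3), on chromosome 1 from 75546266 to 75559431, had 14.4 and 15.2. Their log2 differences were -0.24 and 0.08. Of the sodium bicarbonate cotransporters, *Slc4a7* (NBCn1), whose loss in mice is known to impair hearing and vision, had 7.60 and 4.92, and *Slc4a8* had 1.51 and 2.30. Both were under the limit.

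*Slc4a5*, an electrogenic sodium bicarbonate cotransporter on chromosome 6 from 83237375 to 83304945, had 3.47 FPKM in Lgr5+ cells and 0.0816 in Lgr6+ cells, a log2 difference of -2.05. Its values stood for 92.9 to 133 steps and for 6.996 to 10.04 steps. *Slc4a4*, *Slc4a10* and *Slc4a11*, the gene of a corneal dystrophy with deafness, were at most 0.196 in either population, and *Slc4a9* was listed at 0 in both. *Slc4a1ap*, an adaptor protein, had 10.8 and 7.85. The sodium bicarbonate cotransporters together summed to 12.9 in Lgr5+ cells and 7.52 in Lgr6+ cells, the anion exchangers to 39.2 and 36.0.

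Of the sodium proton exchangers of the plasma membrane, *Slc9a2* had 1.52 FPKM in Lgr5+ cells and 3.39 in Lgr6+ cells, under the limit. *Slc9a5* had 0.263 and 1.93, a log2 difference of 1.21, and was past the limit. *Slc9a4* had 1.07 and 0.162, and *Slc9a3*, the exchanger of kidney and gut, was listed at 0 in both.

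The sodium proton exchangers of organelles differed among themselves. *Slc9a9* (NHE9), an exchanger of endosomes on chromosome 9 from 94669892 to 95230452, had 4.75 FPKM in Lgr5+ cells and 14.9 in Lgr6+ cells, a log2 difference of 1.46. *Slc9a8*, of the Golgi, had 8.60 and 5.29, and *Slc9a7*, of the trans-Golgi network, had 1.02 and 0.144. Both were lower in Lgr6+ cells but under the limit, whereas *Slc9a9* was higher there and past it. The scaffold proteins *Slc9a3r1* and *Slc9a3r2*, which tether transporters to the cytoskeleton below the membrane, had 63.5 and 49.5 and 13.6 and 20.4, and were under the limit.

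The ClC proteins of high level were close between the populations. *Clcn3*, an endosomal chloride proton exchanger, had 22.3 FPKM in Lgr5+ cells and 19.1 in Lgr6+ cells, *Clcn4-2*, its relative, had 13.6 and 21.5, and *Clcn7*, the lysosomal exchanger, had 8.36 and 10.5. *Clcn2*, a channel of the cell surface, had 18.3 and 13.5. Other ClC genes were low. *Clcn6*, of late endosomes, and *Clcn1*, the channel of skeletal muscle, were listed at 0 in Lgr5+ cells and had 1.35 and 1.00 in Lgr6+ cells, so both passed the limit only narrowly above the filter. *Clcn5* was at most 0.36. Of the 4 markers of marginal cells of the stria vascularis, *Kcne1* was listed at 0 in both, *Kcnq1* had 0 and 4.83, *Esrrb* 0 and 0.111 and *Wnk2* 26.2 and 37.0, so that *Kcnq1* was past the limit toward Lgr6+ cells.

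Nearest to the limit, *Clcn1* with a log2 difference of 1.00, *Slc26a10* with -1.08 and *Slc9a5* with 1.21 lay inside it, and *Slc12a9* with -0.89, *Car13* with -0.86 and *Slc9a4* with -0.83 lay outside it.

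**Figure D2:**
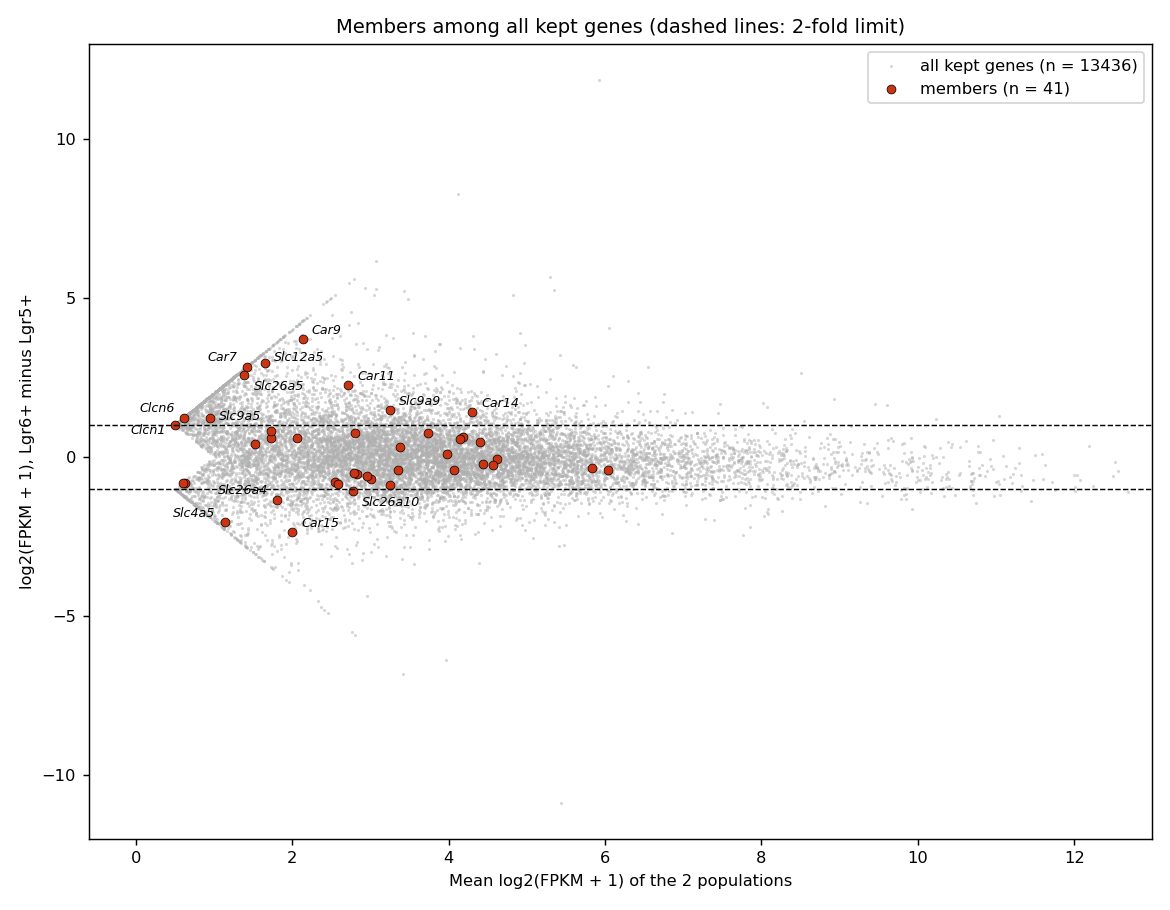
Log2(FPKM + 1) in Lgr6+ minus Lgr5+ cells against the mean log2(FPKM + 1) of both populations, for all 13436 kept genes (grey) and the 41 kept members (red), with dashed lines at the 2-fold limit and the 14 members past it named. Members lie within the spread of all genes, which widens toward low levels, and *Car14* is the named member with the highest mean.

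Partners and regulators of these transporters were taken as a list of 41 genes. Of the 32 that were kept, 7 were past the limit upward in Lgr6+ cells, 2 upward in Lgr5+ cells and 23 under it, so that 28.1% were past it, near the share of all kept genes. Kinases that set chloride transport differed in level. *Wnk1* had 24.5 FPKM in Lgr5+ cells and 32.0 in Lgr6+ cells and *Wnk2* had 26.2 and 37.0, while *Stk39* (SPAK) and *Oxsr1* (OSR1), which phosphorylate *Slc12a* cotransporters, had 63.0 and 33.0 and 21.5 and 11.4. *Wnk4* had 6.60 and 2.83 and *Wnk3*, which was below the filter, had 0.128 and 0.724. None of these 6 kinases was past the limit.

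Of the partners past the limit, *Ostm1*, the subunit of the lysosomal *Clcn7* exchanger, had 9.23 and 3.52, a log2 difference of -1.18, beside little difference in *Clcn7*. *Rdx*, which encodes radixin, a linker of membrane proteins to actin, had 90.1 and 36.8, a log2 difference of -1.27. *Slc16a1* and *Slc16a7*, which carry lactate with protons, had 0.0434 and 3.59 and 0.116 and 3.48. *Ahcyl2*, a regulator of bicarbonate transport, had 4.38 and 15.1, and *Lrrc8d*, a subunit of volume-regulated anion channels, had 4.68 and 12.4. *Lrrc8c*, *Klhl3* and *Clic3* were listed at 0 in Lgr5+ cells and had 1.13, 1.05 and 1.75 in Lgr6+ cells. The chloride channel *Ano1* was high and close in level, with 60.7 and 62.9, and *Cftr* was listed at 0 in both.

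A property that the choice of symbols did not use is the CpG content of the promoter. The ratio of observed to expected CpG in the 250 bases before the start was read for the 48 members found among the RefSeq promoters. Its median was 0.222 for the 6 members listed at 0 in both populations, 0.442 for 10 members above 0 but under an FPKM of 1, 0.569 for 17 whose higher FPKM was from 1 to 10, and 0.527 for 15 at 10 or more. For all 17797 genes the medians in these classes were 0.179, 0.376, 0.656 and 0.747. The 6 members listed at 0 were not alike, with ratios from 0.106 for *Slc26a3* to 0.610 for *Car4* and 0.688 for *Slc9a3*. At 10 or more the median of the members was below that of all genes. The points of the highest class also range widely, from 0.269 for *Slc9a9* to 0.839 for *Clcn3*. TATAAA was found on either strand for 22.9% of the 48 members and for 13.3% of all genes. GGGCGG was found on either strand for 54.2% of the 48 members and for 46.4% of all genes. At 10 or more FPKM both shares went the other way. TATAAA was found there for 0% of the members and 7.72% of all genes, and GGGCGG for 53.3% and 66.1%. In each lower class both shares were higher for the members.

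**Figure D3:**
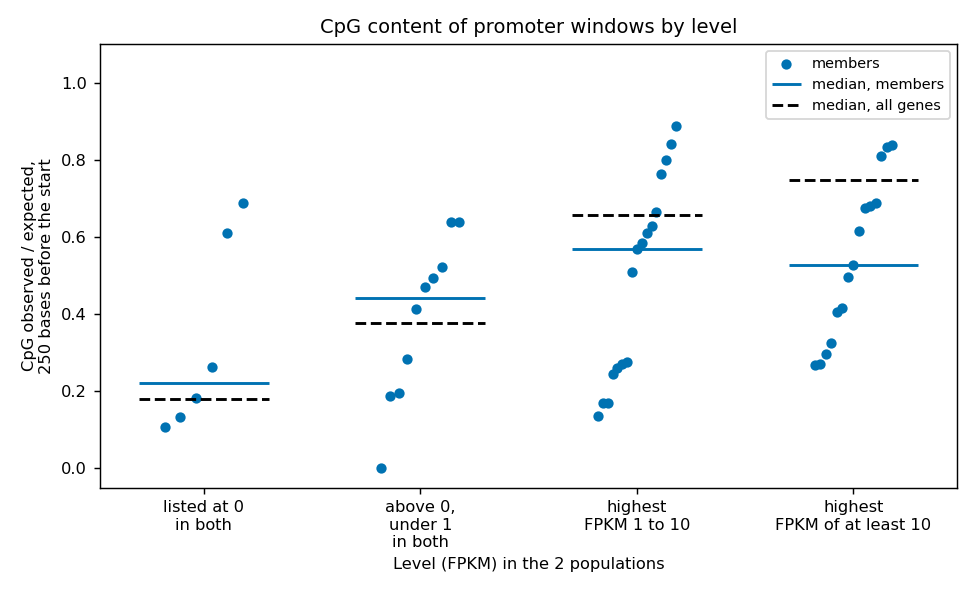
Ratio of observed to expected CpG in the 250 bases before the gene start, for the 48 members found among the RefSeq promoters (points), in 4 classes of FPKM, with the median of the members (solid line) and of all genes in that class (dashed line). The member medians run from 0.222 in the class at 0 to 0.569 and 0.527 in the upper classes, where the medians of all genes are 0.656 and 0.747.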

How the data were processed

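Cochlear Lgr5+ and Lgr6+ progenitors were compared from 1 table. Per the labels and the methods, the authors used the SMART-Seq v4 kit, Trimmomatic for trimming, TopHat for mapping and Cufflinks for FPKM. The FPKM values that the authors deposited are 1 per gene and population, with replicates combined. The methods name mm9 and the labels mm10, and 98.8% of the intervals of 22500 genes overlapped the GRCm38.p6 gene. Starts equalled RefSeq for 11296 genes if the table counts from 0 and for 677 if it counts from 1, so 1 was added to each start. The columns of fold changes, *p*-values and *q*-values hold the authors' own comparison and were not used.

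Kept genes reached 1 FPKM in 1 or both populations. The design named limma for values per sample, which the combined values could not enter, and a 2-fold limit on log2(FPKM + 1) took the place of a test. A 1.5-fold limit, passed by 51.8% of kept genes, was an alternative, as were other pseudocounts, filters and scalings. The members and lists were chosen with earlier results of these data known. By rule, values were given for members reaching 5 FPKM in 1 or both populations or past the limit, and others were named after their values were seen. Values of 5 members, 3 of them kept, are not reported or drawn by name here, but they enter the counts, sums and medians.

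Relative depth was read from the low FPKM values of 7864 genes with 1 annotated transcript, multiplied by its length less 200 bases. In Lgr5+ progenitors 93 products lay at 0.128, against 3.5 beside it, and in Lgr6+ progenitors 37 lay at 0.04, against 0.5. Whether a step is 1 fragment of 1 library is not known, so no counting intervals are given. The windows shown, the motifs searched, the grouping of members by role and the 0.25 log2 within which a median was taken as unmoved were chosen after the values were seen. Promoters were those of RefSeq, with *Clcn4-2* matched through its current symbol. Python 3.11.15, numpy 2.4.6, pandas 2.3.3 and matplotlib 3.10.9 were used. The counting past the limit and its direction were tested on simulated data with large planted differences. Those data held no zeros or steps and the added 1 was not applied in the comparison, so low values were not tested.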

Additional observations from a re-analysis of the deposited data

How the results depend on the processing

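No paired analysis was possible because the table gives 1 combined value per population, and for the same reason no replicate could be left out. Depth limits the low values most, and a step is coarser in Lgr5+ cells. Members past 2-fold numbered 10 higher in Lgr6+ and 4 higher in Lgr5+ cells. In the same order the numbers were 11 and 7 with a pseudocount of 0.1 and 8 and 7 after quantile normalization. They were 13 and 3 after scaling to the same sum and 7 and 2 with a minimum of 5 FPKM in either population. With a minimum of 1 FPKM in each population the numbers were 3 and 2, and with a 1.5-fold limit 15 and 11. The excess toward Lgr6+ cells thus depended on the scaling. Over all kept genes, 3826 and 3136 passed 1.5-fold, and the number higher in Lgr6+ cells at 2-fold was 1435 with a minimum of 5 FPKM in either population and 1214 with 1 FPKM or more in each. At 2-fold the numbers over all kept genes were 2443 and 1575 without rescaling. They were 1956 and 1854 after quantile normalization and 3279 and 1181 after scaling to the same sum.

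Scaling to the same sum moved the median log2 difference of all kept genes to 0.28 and that of the kept members to 0.33. The family medians were then 0.76 for *Car*, 0.72 for *Clcn*, 0.46 for *Slc12a*, 0.85 for *Slc26a* and 0.36 for *Slc9a*. With a minimum of 1 FPKM in each population they were -0.42, 0.039, -0.080, -0.25 and 0.55. Without a filter they were 0.00 for *Car*, -0.030 for *Clcn* and 0.13 for *Slc26a*, with a minimum of 5 FPKM in either population 0.039 for *Clcn*, and after quantile normalization 0.31 for *Slc26a*. These moves follow from which members are kept or from the scaling. No member past 2-fold changed direction under the alternatives run, but these could hardly have changed one. Pseudocounts, filters and fold limits cannot reverse a difference, and the scalings moved these differences by less than the limit. Replicate spread is not covered by them. *Car13*, *Slc9a4* and *Slc9a7* passed 2-fold with a pseudocount of 0.1 and after quantile normalization, and *Slc9a2* with a pseudocount of 0.1 and after scaling to the same sum. The order of members by difference depends on the pseudocount. *Clcn1* and *Slc9a5* fell under the limit after quantile normalization and *Slc26a10* after scaling to the same sum. Leaving out *Car7*, *Car14* and *Clcn2*, whose intervals in the table are over 1.2 times as long as in RefSeq, was chosen after seeing the data and left 12 of the 14.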

Other observations

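Some members lie beside a relative on the chromosome, within 100 kb, and their levels differed within such pairs. *Slc26a3* and *Slc26a4* lie on chromosome 12 with a gap of 45.9 kb, and the former was listed at 0 in both populations while the latter had 4.58 FPKM in Lgr5+ cells and 1.19 in Lgr6+ cells. *Car1* and *Car2* lie on chromosome 3 with a gap of 78.1 kb, with *Car1* listed at 0 in both and *Car2* at 74.9 and 55.8. *Slc9a4* and *Slc9a2*, on chromosome 1 with a gap of 51.0 kb, differed in direction, with 1.07 and 0.162 for *Slc9a4* and 1.52 and 3.39 for *Slc9a2*, though neither was past 2-fold on the log2(FPKM + 1) scale.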
